A study of Mus musculus with 4 samples.

Results

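The genes described here are 34 genes of glycolysis and of the response to low oxygen, taken by symbol and listed by role: carriers of glucose and lactate, hexokinases, enzymes of the upper and lower glycolytic pathway, lactate dehydrogenases, regulators of glycolysis and of pyruvate use, oxygen sensors, and targets of the hypoxia response. On the array 32 of them had a probe set assigned to that gene alone, and 30 of these were on at least 1 array at or above a floor of 3.29 (log2), set at the median over all probe sets and arrays. Slc16a3 and Eno3 stayed below it on every array, and Gpi1 and Eno1 are not analysed here. The whole series holds 18193 named genes, of which 11653 reached the floor.

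The study profiled a pair of sorted mouse progenitors on Affymetrix arrays, with 1 array per group and 4 in all. Wild-type GMP and Trib1-/- GMP are granulocyte monocyte progenitors, and wild-type MDP and Trib1-/- MDP carry the cell type label macrophage dendritic cell. All mice had a mixed C57BL6J/129SV background, and all cells were unstimulated and untreated. The sources used here do not give age, sort gates, animals per array or the deleted part of Trib1. Below, values in a pair follow the order wild type, then Trib1-/-, unless another order is named.

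Glycolysis splits glucose into pyruvate and yields ATP without oxygen. Pyruvate then enters the mitochondria or is turned into lactate, which leaves the cell through monocarboxylate carriers. The transcription factor HIF1A accumulates when the prolyl hydroxylases of the EGLN family lack oxygen, and it raises many glycolytic genes together with genes for vessel growth and mitophagy. Blood stem and progenitor cells reside in bone marrow, where oxygen is low, and glycolysis is a main energy source of stem cells and of mature granulocytes.

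Before the members, 3 features of the arrays bear on every value below. The wild-type GMP array stood apart: it gave the highest of the 4 values for 37.1% of all genes, against 14.2% for Trib1-/- GMP, 24.9% for wild-type MDP and 23.8% for Trib1-/- MDP. It also gave the lowest value for 29.6% of all genes, against 18.9%, 27.6% and 23.8% for the other arrays in that order. Its spiked hybridisation controls averaged 11.6, against 11.9 to 12.0 on the other arrays. By control, wild-type MDP minus wild-type GMP was 0.70 (BioB), 0.58 (BioC), 0.14 (BioDn) and 0.0 (CreX), so the shift was not uniform. The 3' minus 5' difference of the Gapdh control probe sets was 1.06 and 1.20 in GMP and 1.44 and 1.66 in MDP, while that of beta-actin was 2.01, 1.91, 2.01 and 1.67 in the same order. The part of these features in the results was not tested. Trib1 itself, a pseudokinase gene, read 4.85 and 5.19 in GMP and 5.13 and 4.71 in MDP with 1 probe set, and 4.95, 5.10, 5.99 and 5.56 with the other, so it did not separate the genotypes. Since the deleted part and the probe positions are unknown here, it checks nothing, and Trib1-/- means the array so labelled throughout. The scaling of the arrays moved the direction of the differences called over all genes: in wild-type MDP against wild-type GMP 74.9% of the genes at least 2-fold apart were lower, 58.9% with each array centred on the median above the floor and 95.8% with each centred on its hybridisation controls. The same shares were 86.8%, 69.9% and 97.3% for Trib1-/- against wild-type GMP, 58.2%, 55.4% and 39.7% for Trib1-/- against wild-type MDP, and 59.7%, 55.3% and 70.0% for Trib1-/- MDP against Trib1-/- GMP.

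The labels were set against defining markers. All 8 GMP markers were at least 2-fold lower in wild-type MDP than in wild-type GMP, with the elastase gene Elane at 9.57 in wild-type GMP and 4.24 in wild-type MDP. Of 6 MDP markers, the cytokine receptor genes Csf1r and Flt3 and the transcription factor gene Irf8 were at least 2-fold higher in MDP in both genotypes, and the chemokine receptor gene Cx3cr1 differed by 0.34 and 0.30. The other two were lower. Cd34, a marker of blood progenitors, differed by -1.35 and -0.69, and Kit, a marker that both progenitors are usually sorted on, lay below the floor in both MDP arrays (2.43 and 2.69). Resident macrophage markers had a mean of 4.70 and 3.09 in the MDP genotypes, with 12 and 8 of 14 above the floor. Basophil and mast cell markers averaged 5.61 in wild-type GMP and 3.90 in Trib1-/- GMP. All 6 measured erythroid markers were below the floor on every array. In sorted populations measured in bulk, fewer cells of a type and less RNA per cell cannot be told apart.

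The first question was how the genes differed between the progenitors. Most glycolytic enzymes were lower in MDP than in GMP. Of the 5 hypoxia targets 0 differed by 2-fold, which with 5 genes is near the shares of all genes given next. In wild type 10 of 30 members were at least 2-fold lower in MDP (33.3%), where 12.4% of all 11653 genes were, and 0 were at least 2-fold higher, where 4.16% of all genes were. The members' median difference was -0.49, beside -0.04 over all genes. In Trib1-/- cells, measured on 2 other arrays, 5 of 30 members were at least 2-fold lower in MDP (16.7%), where 4.08% of all genes were, and 0 were higher, where 2.75% were. The median there was -0.46, beside -0.01 over all genes. With 1 array per group these are differences between arrays with no replicate check and no test, and the number of arrays limits their precision.

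The 5 members lower by at least 2-fold in both genotypes were Bsg, Aldoa, Tpi1, Pfkfb3 and Egln3, where 2.85% of all genes were lower in both. In sign 22 of 30 members were below 0 in both genotypes, against 35.6% of all genes, and 3 (Ldhb, Bnip3 and Ankrd37) were above 0 in both. Across the 30 members the differences of the genotypes had a Pearson correlation of 0.84, and across all genes one of 0.60. Genes are not independent replicates, and the arrays of both contrasts went through 1 joint normalization. Both GMP arrays lay above both MDP arrays for 19 members (63.3%) and for 29.8% of all genes. Among the 24 members that reached the 75th percentile of all values, 9 were at least 2-fold lower in wild-type MDP, beside 16.2% of the 6925 genes as bright. Probe sets targeting the same gene scattered around each other with an SD of 0.54 in the wild-type contrast and 0.42 in the Trib1-/- contrast (4922 genes), a figure that holds no variation among mice or sorts.

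**Figure D1:**
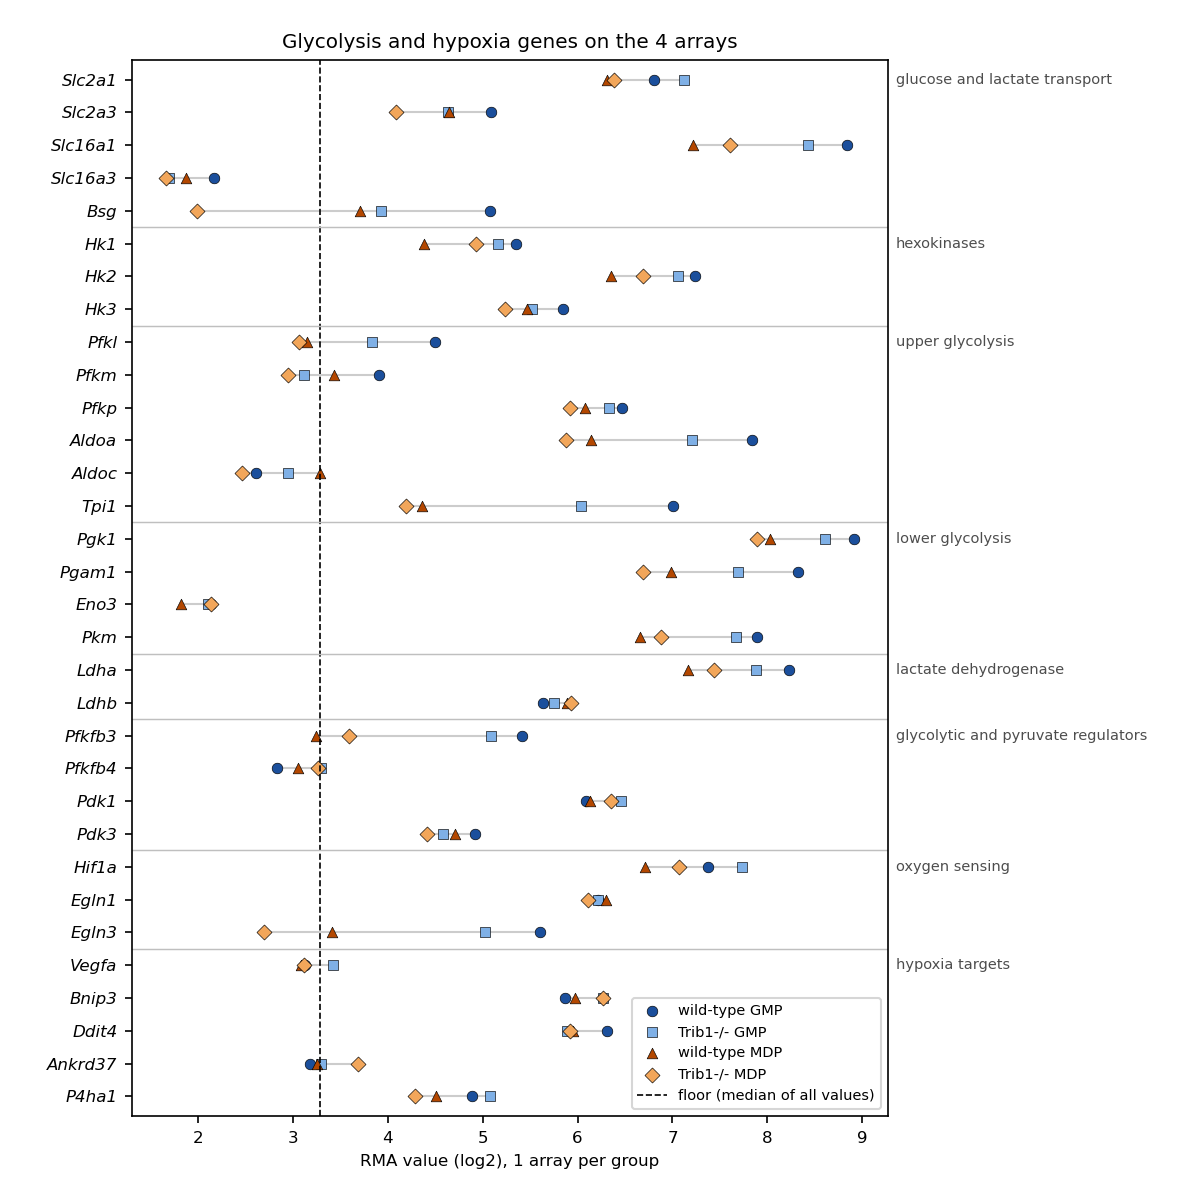
RMA values (log2, horizontal axis) of the 32 measured members (rows, grouped by role) on the 4 arrays, 1 marker per array, with the floor of 3.29 as a dashed line. For Tpi1, Aldoa, Pfkfb3 and Egln3 both GMP markers lie to the right of both MDP markers, while those of Bnip3 lie between 5.87 and 6.27.

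All 4 carrier genes above the floor had lower values in MDP. Slc16a1 encodes a carrier that exports lactate, and its main probe set read 8.83 and 8.43 in GMP and 7.22 and 7.60 in MDP. It was thus 3.07-fold lower in wild-type MDP and 1.78-fold lower in Trib1-/- MDP, both GMP arrays being above both MDP arrays. Its second, dimmer probe set was below the floor on all arrays but that of Trib1-/- MDP (3.85), and with low values raised it differed by 0.56 in Trib1-/- cells, the other way. Bsg encodes basigin, the chaperone that brings such carriers to the membrane, and read 5.08, 3.93, 3.71 and 1.99 in the same order of arrays. It was 2.58-fold lower in wild-type MDP and 3.82-fold lower in Trib1-/- MDP, but its value in Trib1-/- MDP lay below the floor, and with that value raised to the floor the second difference was -0.64.

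The glucose carriers differed by less than 2-fold. Slc2a1, the gene of the widespread glucose carrier GLUT1, read 6.81 and 7.13 in GMP and 6.31 and 6.39 in MDP. Slc2a3, the gene of the high-affinity carrier GLUT3, read 5.09, 4.64, 4.64 and 4.09 in that order. Both genes were lower in MDP, with differences between -0.74 and -0.45, but 1 further probe set of each went the other way in wild type (0.03 for Slc2a1 and 0.48 for Slc2a3). That of Slc2a3 did so in Trib1-/- cells too (0.62). Slc16a3, the gene of a lactate exporter known as a hypoxia target, read between 1.67 and 2.17 and has no usable level here.

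Hexokinases trap glucose in the cell as glucose 6-phosphate. Hk1 read 5.35 and 5.16 in GMP and 4.38 and 4.93 in MDP. Hk2, the hexokinase that HIF1A and MYC raise, read 7.23, 7.06, 6.35 and 6.69 in that order. Both were lower in MDP, with differences of -0.97 and -0.88 in wild type, just short of 2-fold, and of -0.22 and -0.37 in Trib1-/- cells. Hk3, the hexokinase of myeloid cells, read 5.85, 5.52, 5.47 and 5.24. Its differences were -0.38 and -0.28, and its second probe set read -1.76 and -0.58.

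Upper glycolysis held the member with the largest difference in wild type. Tpi1 encodes triosephosphate isomerase, which interconverts the 3-carbon products of aldolase, and read 7.01 and 6.03 in GMP and 4.36 and 4.19 in MDP. Its value was 6.29-fold lower in wild-type MDP and 3.59-fold lower in Trib1-/- MDP, and all 3 probe sets were at least 2-fold lower in both genotypes. Aldoa, the main aldolase gene, read 7.84, 7.20, 6.14 and 5.87. It was 3.24-fold and 2.51-fold lower, with its 5 probe sets between -2.15 and -0.32 in wild type and between -1.60 and -0.19 in Trib1-/- cells. All 5 Aldoa probe sets carry the suffix that marks possible hybridisation to other transcripts.

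Phosphofructokinase commits sugar to glycolysis, and by their main probe sets its 3 genes were lower in MDP to unequal degrees. Pfkl, the liver-type subunit, read 4.49 and 3.83 in GMP and 3.15 and 3.07 in MDP. It was 2.53-fold lower in wild-type MDP (-1.21 after raising low values to the floor), and its second probe set read -1.09 in wild type and 0.43 in Trib1-/- cells. Pfkp, the platelet-type subunit, read 6.47, 6.33, 6.08 and 5.92, and Pfkm, the muscle type, 3.91, 3.11, 3.43 and 2.95. By their main probe sets both stayed within 0.47 between progenitors. The second probe set of Pfkp read 0.32 in wild type and -0.02 in Trib1-/- cells. Aldoc reached the floor on 1 array by a margin too small to give a direction, with 3.29 in wild-type MDP and 2.46 to 2.95 on the other arrays.

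Lower glycolysis was lower in MDP in all 3 members above the floor. Pgam1, phosphoglycerate mutase, read 8.32 and 7.69 in GMP and 6.98 and 6.69 in MDP. Pkm, pyruvate kinase of most tissues and the last enzyme of the pathway, read 7.89, 7.67, 6.66 and 6.88. Pgk1, phosphoglycerate kinase, the first step that yields ATP, read 8.91, 8.61, 8.02 and 7.89. In wild type Pgam1 was 2.53-fold and Pkm 2.36-fold lower in MDP, and Pgk1 differed by -0.88. In Trib1-/- cells none of the 3 reached 2-fold, Pgam1 being at -0.997, and the other probe sets of Pgk1 read -0.32 and 0.01. Eno3, the muscle enolase gene, stayed between 1.83 and 2.14.

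Ldha encodes the subunit that favours the making of lactate, and read 8.23 and 7.87 in GMP and 7.16 and 7.44 in MDP. It was 2.09-fold lower in wild-type MDP and 1.35-fold lower in Trib1-/- MDP, and under 2-fold in wild type after cyclic loess or after centring on the median. Ldhb, the subunit common in tissues that take up lactate, read 5.64, 5.75, 5.89 and 5.94. Its differences were 0.25 and 0.18, but the other 3 probe sets of Ldhb lay below 0 in both genotypes, down to -1.20, so it has no settled direction.

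Gapdh is the glycolytic enzyme gene measured here only by the control probe sets of the array. Its 3' probe set read 10.5 and 10.7 in GMP and 10.8 and 10.8 in MDP. The middle probe set read 9.30, 9.20, 9.19 and 8.96 in the same order. Between progenitors its 3 probe sets differed by -0.13 to 0.25 in wild type and by -0.39 to 0.06 in Trib1-/- cells, so no position reached 2-fold.

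Of the regulators, Pfkfb3 stood out. It encodes the enzyme that makes fructose 2,6-bisphosphate, the strongest activator of phosphofructokinase, and read 5.42 and 5.09 in GMP and 3.24 and 3.60 in MDP. It was 4.51-fold lower in wild-type MDP and 2.82-fold lower in Trib1-/- MDP, and its second probe set, below the floor on every array, read -0.24 and 0.20. Pfkfb4, its relative, stayed between 2.83 and 3.30, close to or below the floor. Pdk1 and Pdk3 encode kinases that inhibit pyruvate dehydrogenase in the mitochondrial matrix and so limit the turning of pyruvate into acetyl-CoA. Pdk1 read 6.09, 6.46, 6.13 and 6.36, and Pdk3 4.92, 4.58, 4.71 and 4.42, each within 0.21 between progenitors. The probe sets of Pdk1 spread from -0.47 to 0.24 in wild type and from -0.41 to 0.53 in Trib1-/- cells, so it has no settled direction.

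**Figure D2:**
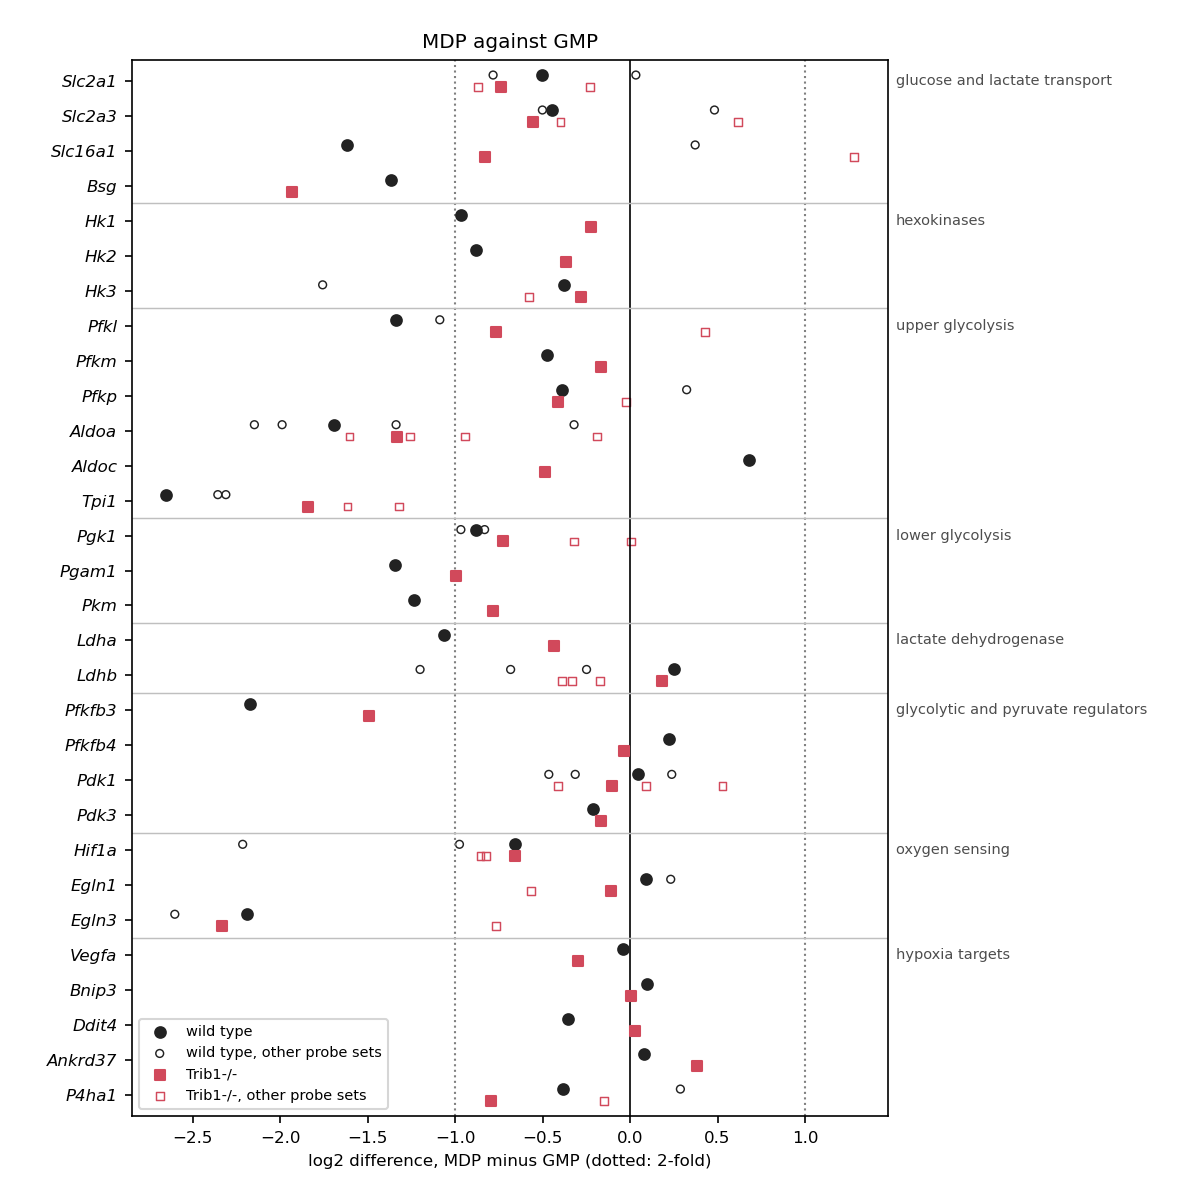
Log2 difference, MDP minus GMP (horizontal axis), of the 30 members above the floor (rows), in wild type (black circles) and Trib1-/- (red squares), with open markers for further probe sets of the same gene above the floor and dotted lines at 2-fold. Filled markers of Bsg, Aldoa, Tpi1, Pfkfb3 and Egln3 lie left of the 2-fold line in both genotypes, and no filled marker lies right of the 2-fold line on the other side.

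Among the oxygen sensors, Egln3 was lower in MDP and Egln1 was not. Egln3 encodes a prolyl hydroxylase that marks HIF1A for destruction and is itself a hypoxia target, and read 5.61 and 5.03 in GMP and 3.41 and 2.69 in MDP. It was 4.57-fold lower in wild-type MDP and 5.05-fold lower in Trib1-/- MDP, with the last value below the floor (-1.74 once raised to it). The second probe set read -2.60 in wild type, or -1.80 with its MDP value raised to the floor, and -0.77 in Trib1-/- cells. Egln1, the main oxygen sensor of most cells, read 6.21, 6.22, 6.30 and 6.11, and its second probe set differed by 0.23 in wild type and -0.57 in Trib1-/- cells.

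Hif1a read 7.37 and 7.73 in GMP and 6.71 and 7.07 in MDP, a difference of -0.66 in each genotype. Its 3 probe sets above the floor were all lower in MDP, between -2.22 and -0.66 in wild type and between -0.86 and -0.66 in Trib1-/- cells. HIF1A is controlled mainly by the stability of the protein, which these arrays do not measure.

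The 5 hypoxia targets outside glycolysis showed no 2-fold difference between progenitors. In wild type 12.4% of all genes were at least 2-fold lower and 4.16% higher, so 0 of 5 is near those shares. Bnip3, a mitophagy gene, read 5.87 and 6.26 in GMP and 5.97 and 6.27 in MDP. Ddit4, an inhibitor of mTORC1 induced by hypoxia and by other stress, read 6.31, 5.89, 5.95 and 5.92. These genes differed between progenitors by 0.35 or less in size. P4ha1, a collagen prolyl hydroxylase, read 4.89, 5.08, 4.50 and 4.28, with differences of -0.38 and -0.80. Its second probe set read 0.29 in wild type and -0.15 in Trib1-/- cells. Vegfa, the vessel growth factor, stayed between 3.09 and 3.42 and Ankrd37 between 3.18 and 3.68, both close to the floor. On both wild-type arrays Vegfa and Ankrd37 lay below it, so neither has a usable difference in wild type. The median difference of the 5 targets was -0.04 in wild type and 0.01 in Trib1-/- cells, while that of the 14 glycolytic enzymes and lactate dehydrogenases was -0.93 and -0.46. The wild-type median of the targets was the value of Vegfa, so it rests on signal below the floor.

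**Figure D3:**
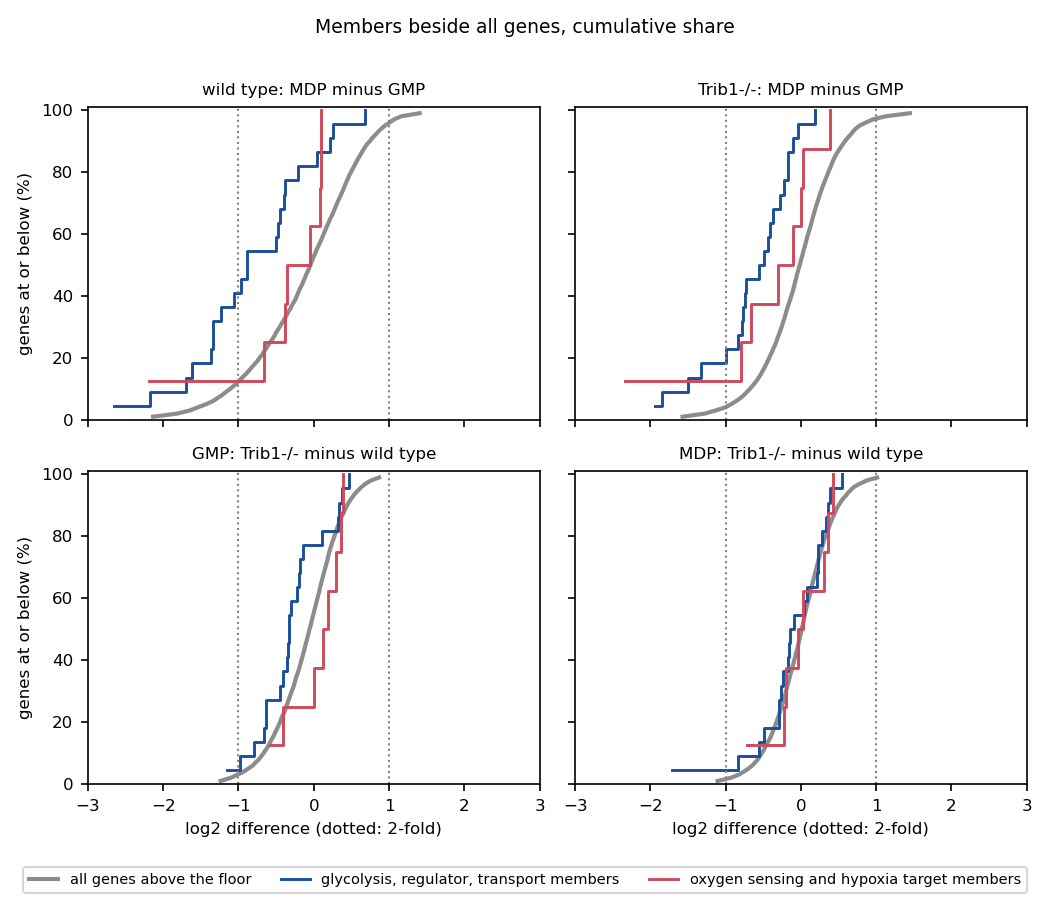
Cumulative share (percent, vertical axis) of genes at or below each log2 difference (horizontal axis) in the 4 comparisons, for all 11653 genes above the floor (grey, drawn between percentiles 1 and 99), the 22 members of glycolysis, its regulators and transport (blue) and the 8 of oxygen sensing and hypoxia targets (red). In both upper panels, MDP minus GMP, the blue steps lie left of the grey curve over most of their length; in the lower right panel, Trib1-/- minus wild type in MDP, all 3 run close together.

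Markers of other cells moved with the progenitor contrast. Resident macrophage markers had a median difference of 1.86 in wild type and of 0.08 in Trib1-/- cells. In wild type 11 of the 12 above the floor were at least 2-fold higher in MDP, where 4.16% of all genes were. With low values raised to the floor 8 of these markers were. The 7 cycling cell markers had medians of -0.64 and 0.30, and 6 basophil and mast cell markers -3.10 and -1.46. Of the handling stress genes, Hspa1b differed by -1.20 and -3.65 and Fos by 0.66 and 1.21, and Hspa1a by -2.18 in Trib1-/- cells, or -0.23 with its MDP value raised to the floor. Their part in the result was not tested.

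The limits of the progenitor contrast lie in the probe sets and in weak signal. Of the 10 members lower in wild type, 6 were read by probe sets whose suffix marks several transcripts, of the same gene (Bsg, Pfkl, Tpi1, Pgam1 and Ldha) or possibly of others (Aldoa). Without all such probe sets 20 members remained above the floor, and 5 were at least 2-fold lower in wild-type MDP, where 11.2% of all genes were: Slc16a1, Pkm, Pfkfb3, Egln3 and, through its next probe set, Hif1a. In Trib1-/- cells 2 were, Pfkfb3 and Egln3, where 3.88% of all genes were. With 32 added to the linear values, which damps weak signals, 5 were lower in wild type (Slc16a1, Aldoa, Tpi1, Pgam1 and Pkm) and 0 in Trib1-/- cells, where 2.72% and 0.558% of all genes were. With the mean of all probe sets of a gene, Slc16a1 and Pfkl were under 2-fold in wild type and Pfkfb3 in Trib1-/- cells, while Hk3 and Hif1a were past it in wild type. Leaving out the wild-type GMP array leaves only the Trib1-/- contrast, with its 5 lower members.

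Promoter sequences were examined because glycolytic genes were lower together. HIF factors bind short sites, often with the core ACGTG, in the genes they raise. Only ACGTG was searched, so sites with another core were not counted. The windows came from RefSeq (GRCm38.p6), from 250 bases before to 50 bases after each annotated start, and 32 of the 34 genes were listed. At least 1 ACGTG on either strand lay in a window of 23 of these 32 genes (71.9%), of 21.8% of all 27025 genes listed and of 28.8% of the 9402 listed genes above the floor. Since the members were chosen as glycolysis and hypoxia genes, this share describes the list and is no independent result. The 32 genes had 46 windows, and all 27025 genes had 32851. Member windows held a median of 20.5 CG dinucleotides, beside 7 over all windows and 19 over windows of genes above the floor, and some genes have several windows. Within the members the shares with ACGTG were close: 7 of the 9 listed members that were at least 2-fold lower in wild-type MDP had the core (77.8%), and 15 of the other 19 above the floor (78.9%). Here the 250 bases before the start are shown for genes lower in MDP (Aldoa, Ldha, Pfkfb3, Egln3 and Tpi1) and for Bnip3, which was level, 5' to 3' on the strand of the gene, with each ACGTG or its reverse complement CACGT in capitals.
Aldoa, chr7:126799179-126799428, minus strand: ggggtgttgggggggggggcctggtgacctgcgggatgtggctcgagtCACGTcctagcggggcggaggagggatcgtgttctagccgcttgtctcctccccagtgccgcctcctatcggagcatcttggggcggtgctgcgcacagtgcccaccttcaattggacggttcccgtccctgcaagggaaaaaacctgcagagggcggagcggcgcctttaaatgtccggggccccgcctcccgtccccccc
Ldha, chr7:46845554-46845803, plus strand: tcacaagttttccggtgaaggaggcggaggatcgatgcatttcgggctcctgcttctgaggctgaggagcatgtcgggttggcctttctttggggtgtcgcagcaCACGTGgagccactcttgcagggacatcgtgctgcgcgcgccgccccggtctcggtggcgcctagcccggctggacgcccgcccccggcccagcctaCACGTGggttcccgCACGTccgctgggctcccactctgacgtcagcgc
Pfkfb3, chr2:11502091-11502340, minus strand: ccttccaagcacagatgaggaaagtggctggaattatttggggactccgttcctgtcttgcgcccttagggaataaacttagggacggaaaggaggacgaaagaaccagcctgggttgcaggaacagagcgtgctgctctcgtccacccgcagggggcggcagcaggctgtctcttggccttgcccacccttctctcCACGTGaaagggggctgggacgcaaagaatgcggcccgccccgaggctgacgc
Egln3, chr12:54203875-54204124, minus strand: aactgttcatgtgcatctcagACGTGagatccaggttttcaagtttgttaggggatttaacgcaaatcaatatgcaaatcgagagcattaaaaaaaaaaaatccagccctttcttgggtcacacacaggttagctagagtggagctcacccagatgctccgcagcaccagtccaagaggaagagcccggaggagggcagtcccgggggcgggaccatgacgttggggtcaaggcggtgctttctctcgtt
Tpi1, chr6:124814159-124814408, minus strand: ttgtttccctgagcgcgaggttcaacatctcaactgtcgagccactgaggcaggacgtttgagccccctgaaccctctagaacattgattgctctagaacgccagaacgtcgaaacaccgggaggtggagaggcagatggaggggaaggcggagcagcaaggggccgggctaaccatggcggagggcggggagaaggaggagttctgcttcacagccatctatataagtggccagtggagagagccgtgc
Bnip3, chr7:138909507-138909756, minus strand: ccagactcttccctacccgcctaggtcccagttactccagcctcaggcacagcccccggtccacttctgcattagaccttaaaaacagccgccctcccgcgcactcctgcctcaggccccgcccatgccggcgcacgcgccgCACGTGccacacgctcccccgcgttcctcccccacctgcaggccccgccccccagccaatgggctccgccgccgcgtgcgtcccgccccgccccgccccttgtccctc
The 6-letter CACGTG is both at once and is also the E-box that MYC and USF factors bind. It lay in a window of 3 of the 9 members lower in wild-type MDP (33.3%), of 3 of the other 19 (15.8%) and of 11.4% of listed genes above the floor. Ldha had it at 145 and 48 bases before the start, beside a CACGT at 34. Pfkfb3 had it at 53 and Bnip3 at 108 bases before the start. In wild type Pfkfb3 was 4.51-fold lower in MDP and Bnip3 differed by 0.10. Tpi1, with the largest wild-type difference of all members, had no match in this window. A match is a string of letters and not a shown binding site, and further starts of Aldoa, Ldha and Pfkfb3 are not printed. In the 250 bases before them, the further Ldha start and the Aldoa start at chr7:126800448-126800697 had no match. The Aldoa start at chr7:126799255-126799504 had 1. The further Pfkfb3 start had 1 ACGTG and no CACGTG.

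The next question was how these genes differed between the Trib1-/- and wild-type GMP arrays. A single member, Bsg, was at least 2-fold lower in Trib1-/- GMP (3.33% of 30, where 3.16% of all genes were lower), and 0 were higher, where 0.481% of all genes were. The share of members lower by 2-fold was thus that of all genes. The members' median was -0.26, beside -0.06 over all genes, and 19 of 30 were below 0 (63.3%), beside 55.2% of all genes. By role, 12 of 14 glycolytic enzymes and lactate dehydrogenases were below 0 with a median of -0.31, while 6 of 8 oxygen sensors and hypoxia targets were above 0 with a median of 0.16. Centring on the hybridisation controls moved the difference of every gene in this contrast by -0.22, which would put the second of these medians below 0, so its direction depends on the scaling. Of the 6 above 0, Egln1 was at 0.01. With low values raised to the floor, Ankrd37 was at 0.02 and Vegfa at 0.14. Further probe sets of Hif1a above the floor read -0.06 and -0.45.

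Bsg was 2.22-fold lower in Trib1-/- GMP, both values being above the floor. Tpi1 differed by -0.98, just inside 2-fold, and its other probe sets by -1.17 and -1.28, so that the mean of its probe sets passed 2-fold. Pfkm (-0.79), Pfkl (-0.66), Aldoa (-0.64) and Pgam1 (-0.63) followed, all enzymes of the pathway, and the probe sets above the floor of Pfkl and Aldoa went 1 way. On the other side Pfkfb4 (0.46), Bnip3 (0.39), Pdk1 (0.37) and Hif1a (0.36) had the highest values. The difference of Pfkfb4 was 0.01 once values below the floor were raised, and probe sets of Pdk1 and Hif1a disagreed in sign. Wild-type GMP read highest of the 4 arrays for 19 of 30 members (63.3%), and for 37.1% of all genes. The order wild-type GMP, Trib1-/- GMP, then both MDP arrays held for 15 members (50%) and for 23.7% of all genes. Basophil and mast cell markers, at 5.61 and 3.90 in the GMP genotypes, moved with this contrast, as did cycling cell markers, whose mean was 7.52 in wild-type GMP and 7.04 in Trib1-/- GMP with all 7 measured above the floor. Of 8 handling stress genes, the heat shock gene Hspa1b was higher in Trib1-/- GMP by 1.76 and Dusp1, a phosphatase gene, differed by -1.20. Hspa1a differed by 1.84, or by 0.23 with its wild-type value raised to the floor. Their part in the result was not tested.

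In MDP, Bsg was again the single member at least 2-fold lower in Trib1-/- MDP (3.33% of 30, where 1.53% of all genes were lower), and 0 were higher, where 1.1% of all genes were. Its difference was -1.72, or 3.29-fold, but the Trib1-/- value (1.99) was under the floor, and with it set to the floor the difference shrank to -0.42. The members' median was -0.06, beside 0.01 over all genes. Aldoc (-0.83), Egln3 (-0.72) and Slc2a3 (-0.56) had the next lowest values and Hk1 (0.55), Ankrd37 (0.42) and Slc16a1 (0.38) the highest. Raised to the floor, Aldoc differed by -0.004 and Egln3 by -0.13. Resident macrophage markers moved with this contrast, with a median of -1.76. Of the 12 above the floor 10 were at least 2-fold lower in Trib1-/- MDP, where 1.53% of all genes were. With low values raised to the floor 7 of these markers were. The 8 handling stress genes had a median of -0.31, with 0 at least 2-fold apart. Their part in the result was not tested.

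Probe sets of the oxygen sensing genes disagreed in MDP. For Egln3 the main probe set read -0.72 and the second 1.20, but each rests on 1 value below the floor, and raised to it they read -0.13 and 0.39. For Hif1a the main probe set read 0.36, the second 1.30 and the third -0.30. The second of Hif1a read 6.32 and 6.26 in GMP and 4.10 and 5.40 in MDP, so the wild-type MDP array was the low one. Neither gene has a settled direction between the MDP genotypes. Of 15 members with several probe sets above the floor, 7 had all of them in 1 direction in this contrast, against 10 in GMP, 8 in wild-type MDP against GMP and 9 in the Trib1-/- progenitors.

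Between the progenitors, whose genotype contrasts share no array, more members shared a sign than had opposite signs. Of 30 members 13 were below 0 in both GMP and MDP, beside 25.6% of all genes, 8 were above 0 in both and 9 had opposite signs. Over all genes 55.2% were below 0 in GMP and 48.5% in MDP. The shares of all genes above 0 in both or with opposite signs were not counted. The Pearson correlation across the members was 0.50, and 0.34 without Bsg, beside -0.01 across all genes, with genes not being independent replicates. At least 2-fold lower in both was Bsg alone, where 0.0944% of all genes were, and this rests on a value below the floor. The opposite signs included Slc16a1 (-0.40 in GMP and 0.38 in MDP), Ldha (-0.35 and 0.28), Pkm (-0.23 and 0.23), Pfkfb3 (-0.32 and 0.35), Hk1 (-0.19 and 0.55) and Hk2 (-0.18 and 0.34). Whether the difference between genotypes was unlike in GMP and MDP was not tested, there being 1 array per group.

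**Figure D4:**
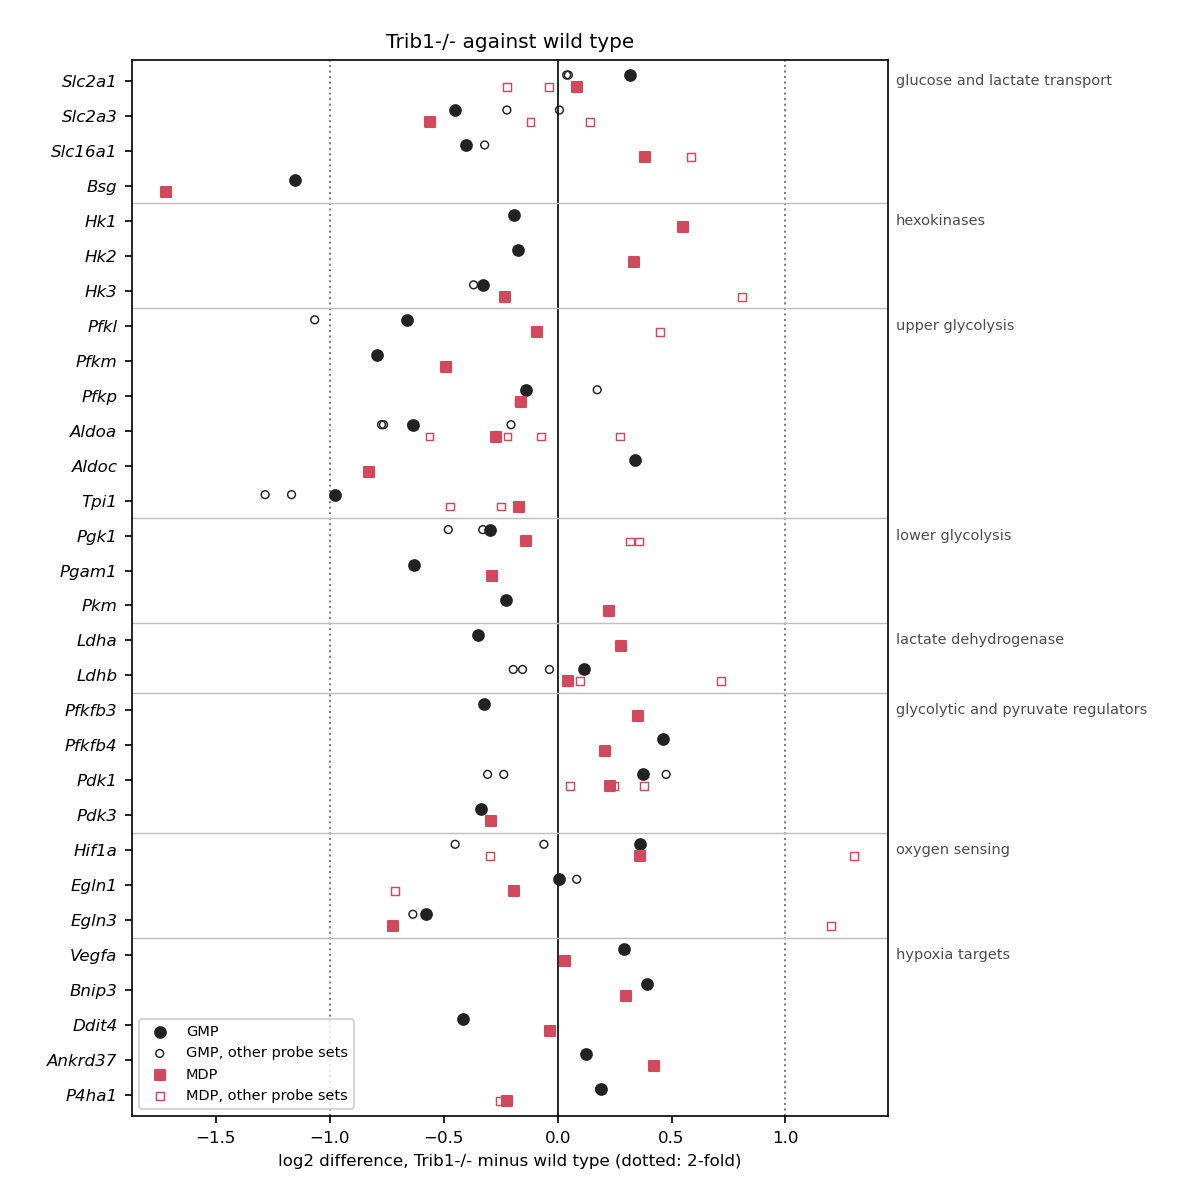
Log2 difference, Trib1-/- minus wild type (horizontal axis), of the 30 members above the floor (rows), in GMP (black circles) and MDP (red squares), with open markers for further probe sets of the same gene above the floor and dotted lines at 2-fold. Bsg is the single member whose filled markers pass the 2-fold line, and the open markers of Hif1a and Egln3 in MDP lie at 1.30 and 1.20, far from the filled ones (Egln3 at 0.39 with its low value raised to the floor).

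Other genes of the same pathways were taken from lists that hold no member. Of 13 other glycolytic enzymes 5 were above the floor, and 2 reached a 2-fold lower value in wild-type MDP than in wild-type GMP: Pgm1 (-1.53) and Pgm2 (-1.37), which link glycogen and nucleoside sugars to glycolysis. Of all genes 12.4% were as low. In Trib1-/- cells they were at -0.99 and -0.24. Of 8 other oxygen sensing genes 6 were above the floor, and 1 was at least 2-fold lower in wild type, Cited2 (-1.49, and -0.81 in Trib1-/- cells), which competes with HIF1A for its coactivators. A count of 1 in 6 is near the 12.4% of all genes.

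Of 22 other hypoxia targets 15 were above the floor. Ak4, a mitochondrial adenylate kinase, was 7.60-fold lower in wild-type MDP and 6.67-fold lower in Trib1-/- MDP, reading 8.49 and 8.42 in GMP and 5.56 and 5.68 in MDP. Ero1a, an oxidase of the endoplasmic reticulum, differed by -1.62 in wild type and -0.83 in Trib1-/- cells. Bhlhe40, a transcriptional repressor, differed by 1.25 in wild type, but its GMP value (2.40) was below the floor, and raised to it the difference was 0.36. Ccng2, a cyclin of resting cells, was higher in MDP by 0.98 and 1.51. At least 2-fold lower were thus 2 of 15 in wild type and 1 in Trib1-/- cells, beside 12.4% and 4.08% of all genes. The median of this list was -0.01 in wild type and 0.14 in Trib1-/- cells, close to 0, while single genes differed by up to 7.60-fold. No gene of these lists was at least 2-fold apart between genotypes in either progenitor.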

How the data were processed

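Values were the deposited log2 values of the series table, made by the authors with RMA per the submitters' processing notes. The log2 scale was inferred from the range (0.14 to 14.5). Array medians were 3.27, 3.29, 3.31 and 3.27, so the table is not centred, and its columns are levels, not ratios. No source used here gives the RMA version or a genome build. Amplified cRNA was hybridised, per the labels' protocols.

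Of 45101 probe sets, 64 controls were left out, 34945 had 1 symbol, 932 several and 9160 none listed. Each gene took its probe set with the highest mean. Differences were formed for 4 comparisons and counted at 2-fold, with no test. All members are described. Genes of the other pathway lists are named where at least 2-fold apart, and markers where they bear on a label or move with a contrast; Pdp1 and Pdp2 were chosen after their values were seen. Gapdh, read from control probe sets, was added after its values were seen. Members and lists were chosen with earlier results of these data known. Alternatives, run with Python 3.11.15, pandas 2.3.3 and limma 3.58.1 (cyclic loess, 3 iterations), covered floors, probe sets, scalings, size rules of 1.5-fold and 4-fold, and an offset of 32. Raising low values of other genes and further probe sets was added after seeing the data. The calculation was tested on simulated data.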

Additional observations from a re-analysis of the deposited data

How the results depend on the processing

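The median difference over members moved by less than the SD between probe sets under the alternatives run. That SD describes single probe sets (0.37 between GMP genotypes, 0.38 between MDP genotypes, 0.54 and 0.42 in the wild-type and Trib1-/- progenitors). The medians were -0.26, -0.06, -0.49 and -0.46 in that order, so a shift under the SD says little about their stability. In MDP genotypes the sign of the median changed with the mean of all probe sets (0.19) and with centring on the hybridisation controls (0.03). Counts of members at least 2-fold lower moved as follows. Values below the floor raised to it gave 0 between MDP genotypes, where 0.687% of all genes were lower. In the Trib1-/- progenitors they gave 4, without Bsg, where 3.08% were. For wild-type MDP against GMP, cyclic loess and centring on the median each left out Ldha, where 12.3% and 9.6% of all genes were lower. The floor at the 75th percentile, reached by 24 members, left out Pfkl there, where 16.2% were. The mean of all probe sets gave 2 between GMP genotypes (Bsg and Tpi1), where 2.6% of all genes were lower. In the Trib1-/- progenitors that mean left out Pfkfb3, where 3.06% were lower. Without probe sets of several transcripts the counts were 0 between GMP genotypes, 0 between MDP genotypes, 5 for wild-type MDP against GMP and 2 for Trib1-/- MDP against GMP, and 1 member (Hif1a, by another probe set) was higher between MDP genotypes. In the order of these counts 2.89%, 1.5%, 11.2% and 3.88% of all genes were lower. Centring on the hybridisation controls gave 3 between GMP genotypes (Bsg, Pfkm and Tpi1), where 6.86% of all genes were lower. In wild-type MDP against GMP it added Hk1, Hk2, Pgk1 and Hif1a, where 24.2% of all genes were lower. In the Trib1-/- progenitors it added Pgam1, where 5.16% were. It shifted the median of all genes to -0.28 between GMP genotypes and to -0.44 in wild-type MDP against GMP. Between MDP genotypes that median was 0.10, and in the Trib1-/- progenitors it was -0.10. Centring on the median shifted it to 0.05 between GMP genotypes and 0.09 in wild-type MDP against GMP. With 32 added the counts were 0, 0, 5 and 0, in the order of GMP genotypes, MDP genotypes, wild-type and Trib1-/- progenitors. Of all genes 0.129%, 0.0257%, 2.72% and 0.558% were lower in that order. At 1.5-fold 6 and 3 members were lower between GMP and MDP genotypes, 14 in wild-type and 13 in Trib1-/- progenitors, beside 13.2%, 7.61%, 24.8% and 12.7% of all genes, and 1 member (Aldoc) was higher in wild-type MDP. At 4-fold the counts were 0, 0, 3 and 1, beside 0.0515%, 0.0601%, 1.3% and 0.481% of all genes. The cause was not tested, beyond fewer members (20) without probe sets of several transcripts. Of 1008 values of single members, 42 moved by more than the SD between probe sets and 0 of those at least 2-fold apart changed sign. No paired analysis was possible because each group has 1 array. Weak signals near the floor limit Bsg, Aldoc, Pfkl, Pfkm, Pfkfb4, Vegfa, Ankrd37 and the MDP values of Egln3 and Pfkfb3.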

Other observations

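All 6 measured genes of the pentose phosphate pathway, which makes NADPH and ribose, were below 0 in wild-type MDP against wild-type GMP, with a median of -1.15, and 4 were at least 2-fold lower in both genotypes, where 2.85% of all genes were. Pgd, a dehydrogenase that yields NADPH, read 7.53 and 6.86 in GMP and 4.66 and 5.45 in MDP. Tkt, transketolase, read 9.70, 9.29, 8.49 and 7.97, Rpia, the ribose isomerase, differed by -1.59 and -1.04 in wild type and Trib1-/- cells, and Taldo1, transaldolase, by -1.08 and -1.06.

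Of 9 genes of pyruvate dehydrogenase and pyruvate import, 3 were at least 2-fold lower in wild-type MDP, where 12.4% of all genes were, and 0 in Trib1-/- cells, where 4.08% were. They were Dld (-1.44), Pdha1 (-1.01) and Pdhx (-1.09), all subunits of the complex. The MDP value of Pdhx (2.65) was below the floor, and raised to it the difference was -0.45, which leaves 2. Pdp1 and Pdp2, phosphatases that activate the complex, lay above 0 in wild type (0.85 and 0.36). Myc, whose product raises many glycolytic genes, read 7.56 and 6.78 in GMP and 5.46 and 5.29 in MDP. Of the 7 cycling cell markers 5 were below 0 in wild type and 2 in Trib1-/- cells, beside 52.6% and 51.3% of all genes.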
